A study of Mus musculus with 2 samples.

Results

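Interferon-stimulated genes are described here in newborn mouse kidney cells: Isg15, Ifit1, Ifit3, Irf7, Rtp4, Oasl2, Xaf1, Bst2 and Ifi27l2a, which are 9 of the 10205 genes listed for either library. The files give them in lower case (isg15, ifit1, ifit3, irf7, rtp4, oasl2, xaf1, bst2 and ifi27l2a). They were named for this work from earlier results of the same counts, in which their levels differed between the libraries, so every difference below describes these libraries and none was tested. All 9 are listed for the exposed library and 7 of them for the control library. Ifit1 and Irf7 were not analysed in the control, and sums over the genes use the 7 listed for both.

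Whole kidneys of male C57BL/6J mice at postnatal day 2 were read by droplet single-cell RNA sequencing, at an age at which mouse kidneys are still forming nephrons. One group had been exposed to maternal diabetes (labelled DM_Exp) and the other was the control. Each group has 1 library, described both as 1 kidney and as pooled cells, which does not settle whether it held more than 1 animal. The sources used here do not name the diabetes model. Endothelium-, stroma-, macrophage-, podocyte- and proximal tubule-like clusters were present in both libraries, as a whole kidney would hold. The exposed library held 5494 cells with a median of 4251.5 unique molecular identifiers (UMIs, tags that count captured transcripts), and the control held 9071 cells with a median of 3453 UMIs. Of all cell barcodes, 14 occurred in both libraries. With 1 library per group there is no replicate check, and the 95% intervals below cover counting error only. They treat UMIs or cells as independent draws and say nothing of the spread between animals.

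Type I interferons bind a receptor of Ifnar1 and Ifnar2 chains, whose Janus kinases activate transcription factors by phosphorylation. With Irf9 these form the complex ISGF3, which binds the interferon-stimulated response element in the promoters of its target genes. Interferon gamma acts through another receptor and on another promoter element, the gamma-activated sequence. Many target genes encode antiviral proteins, and endothelial cells and macrophages are known responders.

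The 9 genes lie on 8 chromosomes of the GRCm38 build and all are annotated as protein-coding. Ifit3 (chr19:34583531-34588731) and Ifit1 (chr19:34640871-34650009) lie close together on the plus strand. Rtp4 (chr16:23520291-23614222), Oasl2 (chr5:114896936-114912234) and Xaf1 (chr11:72301629-72313733) are also on the plus strand. Isg15 (chr4:156199424-156200818), Irf7 (chr7:141262706-141266481), Bst2 (chr8:71534255-71537456) and Ifi27l2a (chr12:103442167-103443680) are on the minus strand. Mouse Ifit1 and Ifit3 have close copies beside them, and the sources used here do not say how reads shared between copies were counted, so their counts are uncertain.

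Promoter windows from RefSeq (GRCm38.p6), which run from 250 bases before to 50 bases after a gene's start, were matched by symbol for 7 of the 9 genes, all but Rtp4 and Ifi27l2a. A short form of the interferon-stimulated response element, the letters GAAA, any 2 bases and GAAA again, was searched on both strands. It occurred in 4 of the 7 windows, and in 3.44% of the 32841 windows of the same length (1131 windows). The 170 bases before the start of those 4 genes are shown because they hold every match, 5′ to 3′ on the gene's strand, with the matched letters in capitals.
Isg15, chr4:156200819-156200988, minus strand: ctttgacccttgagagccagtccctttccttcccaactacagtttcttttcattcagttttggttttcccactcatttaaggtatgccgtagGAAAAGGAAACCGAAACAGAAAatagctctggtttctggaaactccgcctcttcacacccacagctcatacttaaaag
Ifit1, chr19:34640719-34640888, plus strand: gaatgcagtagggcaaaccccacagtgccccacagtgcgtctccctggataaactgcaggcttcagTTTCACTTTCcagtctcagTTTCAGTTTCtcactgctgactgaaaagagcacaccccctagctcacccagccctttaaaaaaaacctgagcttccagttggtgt
Ifit3, chr19:34583359-34583528, plus strand: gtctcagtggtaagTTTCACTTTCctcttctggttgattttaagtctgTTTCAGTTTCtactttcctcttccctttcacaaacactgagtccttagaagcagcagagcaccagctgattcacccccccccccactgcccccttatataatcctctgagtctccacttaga
Bst2, chr8:71537473-71537642, minus strand: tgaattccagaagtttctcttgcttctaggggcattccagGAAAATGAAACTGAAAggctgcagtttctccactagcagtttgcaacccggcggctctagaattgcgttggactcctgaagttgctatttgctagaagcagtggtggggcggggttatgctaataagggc

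Isg15 held 3 overlapping matches between 78 and 57 bases before its start, and Bst2 held 2 overlapping matches between 130 and 115 bases before its start. Ifit1 and Ifit3 each held 2 separate matches on the other strand, with identical letters in both genes. The Ifit1 matches began 104 and 85 bases before its start and the Ifit3 matches 156 and 122 bases before its start. The gamma-activated sequence, searched as TTCNNNGAA (the same on both strands), occurred in Bst2 alone, starting 136 bases before its start and overlapping the response element, and in 8.30% of all windows (2725 windows). The windows of Irf7, Oasl2 and Xaf1 held neither set of letters, which says only that these letters are not in those windows.

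Endothelial cells were picked as cells with at least 3 of Pecam1, Kdr, Cdh5, Emcn and Flt1 detected, none of which is an interferon-stimulated gene. The gate took 427 exposed cells (7.77% of the library, median 3509 UMIs) and 589 control cells (6.49%, median 3386 UMIs). The authors' own clusters carry numbers and no names; in each library 1 was endothelium-like by 10 of 10 markers, and it held 419 of the gated exposed cells and 535 of the gated control cells. Of the control's other gated cells, 32 lay in a cluster led by Wnt4, a gene of differentiating nephrons. Each gene's UMIs were summed over the gated cells of a library and divided by the UMIs of all listed genes in those cells, as CPM (UMIs per 1000000 UMIs). The kit tags the 3′ end of each transcript, so CPM counts transcripts and is not divided by gene length.

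In these endothelial cells the interferon-stimulated genes were higher in the exposed library, from a ratio of exposed over control of 1.47 for Bst2 to 3.36 for Isg15 and 3.48 for Ifit3, with Ifi27l2a higher on few UMIs. The sum over 7 genes stood at 1241 CPM in exposed cells (2536 UMIs) and 715 CPM in control cells (1825 UMIs), a ratio of 1.74 (1.63 to 1.84). Most of that sum was Bst2 in both libraries. The median over all 7104 genes with at least 50 UMIs in the gate over both libraries was a log2 ratio of 0.03, close to no difference.

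Isg15 encodes a ubiquitin-like modifier that is attached to other proteins. It had 301 UMIs in exposed cells and 112 UMIs in control cells, or 147 CPM in exposed (131 to 165) and 43.9 CPM in control cells (36.1 to 52.8). The ratio was 3.36 (2.69 to 4.21). Rtp4, which encodes a chaperone of receptor proteins that is also induced by interferon, had 227 UMIs in exposed cells and 96 UMIs in control cells. Its level was 111 CPM in exposed and 37.6 CPM in control cells, a ratio of 2.95 (2.32 to 3.79).

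Ifit3 and Ifit1 encode antiviral proteins with tetratricopeptide repeats, some of which bind viral RNA. Ifit3 was sparse, with 53 UMIs (25.9 CPM) in exposed cells and 19 UMIs (7.45 CPM) in control cells, and its ratio of 3.48 (2.03 to 6.23) has a wide interval. Ifit1 had 83 UMIs in exposed cells (40.6 CPM, 32.4 to 50.4). Oasl2, of the oligoadenylate synthetase family that responds to double-stranded RNA, had 46.0 CPM in exposed cells (94 UMIs) and 20.8 CPM in control cells (53 UMIs), a ratio of 2.21 (1.57 to 3.16). For each of these 3 genes, most positive cells held a single UMI.

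Bst2 encodes tetherin, a membrane protein that holds budding virus particles at the cell surface, and it had the highest CPM of the 9 genes. Its level was 816 CPM in exposed cells (777 to 856, 1667 UMIs) and 553 CPM in control cells (525 to 583, 1412 UMIs), so its ratio of 1.47 (1.37 to 1.58) was the lowest of the 7 and also the narrowest. Xaf1, whose product binds the apoptosis inhibitor XIAP, had 85.2 CPM in exposed cells and 50.2 CPM in control cells, a ratio of 1.70 (1.34 to 2.15). Ifi27l2a, a small hydrophobic interferon-induced protein of the Ifi27 family, was nearly absent from endothelium, with 20 UMIs in exposed cells and 5 in control cells. Its ratio of 4.99 has an interval of 1.82 to 17.0 and rests on those few UMIs. Irf7, the transcription factor that amplifies type I interferon production, had 42.6 CPM in exposed cells (34.1 to 52.5, 87 UMIs).

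**Figure D1:**
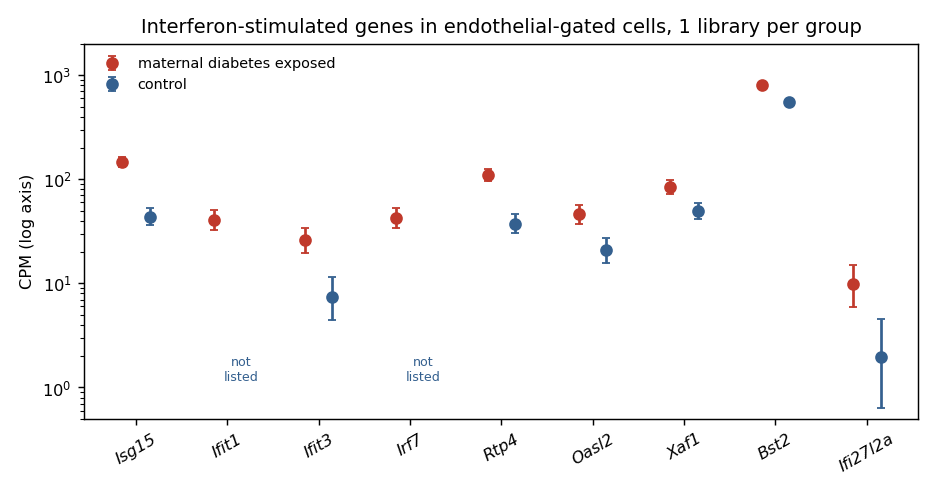
Level of each interferon-stimulated gene in endothelial-gated cells, in CPM on a log axis, with 1 library per group; bars are exact 95% Poisson intervals of the summed UMIs and cover counting error only. The exposed library lies above the control for each of the 7 genes listed for both, with Isg15 at 147 against 43.9 CPM and Bst2 at 816 against 553 CPM.

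A ratio of 1.5 was used to mark larger differences. Of the 6 interferon-stimulated genes with at least 50 UMIs, 5 reached it, against 2.34% of all genes (166 of 7104); since the genes were chosen on this contrast, nothing is read from the count. Xaf1 at 1.70 was the lowest above that ratio and Bst2 at 1.47 stood just below it. Among the 7104 genes ranked from the highest ratio, Ifit3 was number 1, Isg15 number 2, Rtp4 number 4, Oasl2 number 12, Xaf1 number 58 and Bst2 number 196.

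**Figure D2:**
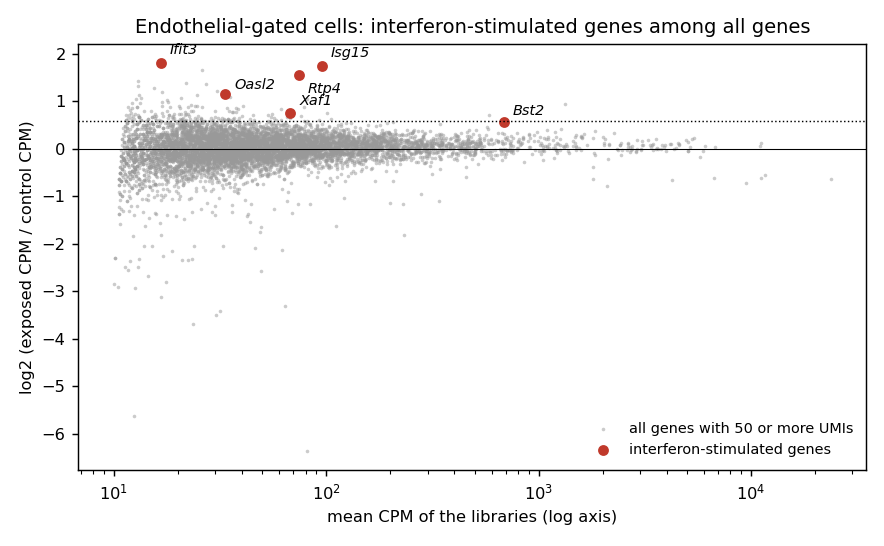
Log2 ratio of exposed over control CPM against the mean CPM (log axis) for all 7104 genes with at least 50 UMIs in endothelial-gated cells; interferon-stimulated genes are marked, and the dotted line is a ratio of 1.5. Ifit3, Isg15 and Rtp4 lie at the upper edge of the cloud, whereas Bst2, the most abundant of them, lies at a ratio of 1.47.

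Other features of the gated cells moved beside this. Macrophage markers summed to 199 CPM in exposed and 154 CPM in control gated cells, with all 9 listed markers detected in both, and the complement genes C1qc and C1qa were among the 10 genes with the highest ratios (2.71 and 2.50). Without cells holding 2 or more of 7 macrophage markers the summed ratio was 1.72. Neutrophil markers (6 listed) summed to 12.2 CPM in exposed and 125 CPM in control cells, with Ngp and Camp at 0 in both. Erythroid markers stood at 3.43 and 6.27 CPM in exposed and control cells. The median share of mitochondrial UMIs was 4.84% in exposed and 5.86% in control gated cells. In gated cells with 3 or more of the 7 genes it was 4.29% in the exposed and 4.83% in the control library, and in those with none it was 5.50% in the exposed and 7.28% in the control library. Cells with an authors' doublet score over 1 made up 8.20% of gated exposed cells and 13.9% of gated control cells. Without cells over 25% mitochondrial UMIs the summed ratio was 1.69, and without mitochondrially encoded genes in the total it was 1.68. Beyond these settings the part of the mitochondrial share in the result was not tested, nor was that of neutrophil and erythroid RNA.

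The level was also read on both sides of the gate's edge. Cells with exactly 3 of the 5 endothelial markers had a summed level of 1326 CPM in the exposed library (127 cells) and 678 CPM in the control (213 cells). Cells with exactly 2 had 1005 CPM in the exposed library (58 cells) and 674 CPM in the control (141 cells). Cells with none of the 5 markers had 132 CPM in the exposed library and 66.5 CPM in the control.

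Gated cells were also split by 2 genes of endothelial kinds. Plvap marks fenestrated capillaries outside mature glomeruli and Ehd3 marks glomerular endothelium. Gated cells with Plvap and no Ehd3 had 1288 CPM in the exposed library (314 cells) and 721 CPM in the control (426 cells), a ratio of 1.79 (1.66 to 1.92). Gated cells with both had 1191 CPM in the exposed library (70 cells) and 824 CPM in the control (82 cells), a ratio of 1.44 (1.26 to 1.65). Cells with both are not a separate kind by these markers, and cells with Ehd3 alone, at 10 exposed and 11 control cells, were too few for a ratio. The difference between the ratios was not tested.

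A larger share of cells was positive in the exposed library for each of the 7 genes. Isg15 was detected in 32.8% of exposed and 12.2% of control gated cells, and Rtp4 in 33.7% of exposed and 13.9% of control gated cells. Bst2 was detected in 89.0% of exposed and 76.9% of control cells. Because detection grows with depth, each cell was also thinned at random to 2000 UMIs, which left out 60 shallower exposed cells and 140 shallower control cells. Isg15 was then found in 20.4% of exposed and 6.24% of control cells, a difference of 14.2 percentage points (9.57 to 19.0). Rtp4 was found in 19.9% of exposed and 8.02% of control cells. Bst2 was found in 76.0% of exposed and 58.6% of control cells, a difference of 17.4 points (11.0 to 23.6).

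As a background, podocyte-like cells, which share their library's free RNA (transcripts loose in the suspension), held no Isg15 UMI in 254 exposed cells and in 354 control cells. That allows a share of cells with an Isg15 UMI of up to 1.18% in the exposed and 0.847% in the control library (3 cells of the total), at medians of 2616 UMIs per cell in the exposed and 2142.5 in the control library. Bst2 was found there in 1.97% of exposed and 1.41% of control cells, far below its share in endothelial cells. Some deeper clusters with the same free RNA had more. Bst2 was found in 11.2% of exposed and 9.81% of control cells of the cluster led by Wnt4. The largest distal-type cluster stayed unnamed in the exposed library and was intercalated cell-like in the control, so its values are only set side by side. Bst2 was found there in 21.7% of exposed and 11.6% of control cells. The clusters led by mitochondrially encoded genes, also deeper than the podocyte-like cells, had Bst2 in no exposed cell and in 0.175% of control cells. A shallower distal-type cluster of the exposed library (median 2287 UMIs) had it in 3.66% of cells. The part of free RNA in these shares was not tested.

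The UMIs of each gene were also read cell by cell. The 5 gated cells with most Isg15 carried 15.0% of its UMIs in the exposed library and 20.5% in the control, and 50% of its UMIs lay in 29 of 427 exposed and 19 of 589 control cells, a small part of the gate. For Rtp4 the 5 top cells held 9.69% of the UMIs in exposed and 13.5% in control cells, and for Oasl2 12.8% in exposed and 20.8% in control cells. Ifit3 was more concentrated, at 24.5% in exposed and 52.6% in control cells, and 1 exposed cell carried 7 of the 20 Ifi27l2a UMIs. The 43 exposed and 59 control cells with most UMIs, or 10% of the gate, held 32.0% of the summed UMIs in the exposed library and 34.1% in the control. Without Bst2, which supplied most of the sum, the 10% of cells with most UMIs held 43.5% in the exposed library and 51.8% in the control. Cells with no UMI of the 6 genes other than Bst2 made up 35.1% of exposed and 61.8% of control cells.

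Detection of several of the genes in the same cell was counted next. At least 3 of the 7 were detected in 151 of 427 exposed gated cells (35.4%, 30.8 to 40.1) and in 63 of 589 control gated cells (10.7%, 8.32 to 13.5), a difference of 24.7 points (19.5 to 29.8). Bst2 alone was found in most gated cells of both libraries, and without Bst2 and Ifi27l2a the difference in the share with at least 3 was 12.1 points (8.49 to 16.1). After thinning, the share was 15.0% in exposed and 2.45% in control cells, a difference of 12.5 points (8.75 to 16.7). Thinned cells with none of the 7 made up 15.5% of the exposed and 32.7% of the control cells. With Ifit1 and Irf7 counted as well, 42.4% of exposed gated cells held at least 3 of 9 and 12.4% at least 5, and 4 cells held 8. Gated cells with 3 or more were deeper, with medians of 5361 UMIs in the exposed and 6359 UMIs in the control library, than gated cells with none, at 2281.5 UMIs in the exposed and 2171 UMIs in the control library. Of those cells with 3 or more, 22 of 151 exposed and 20 of 63 control cells had a doublet score over 1.

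**Figure D3:**
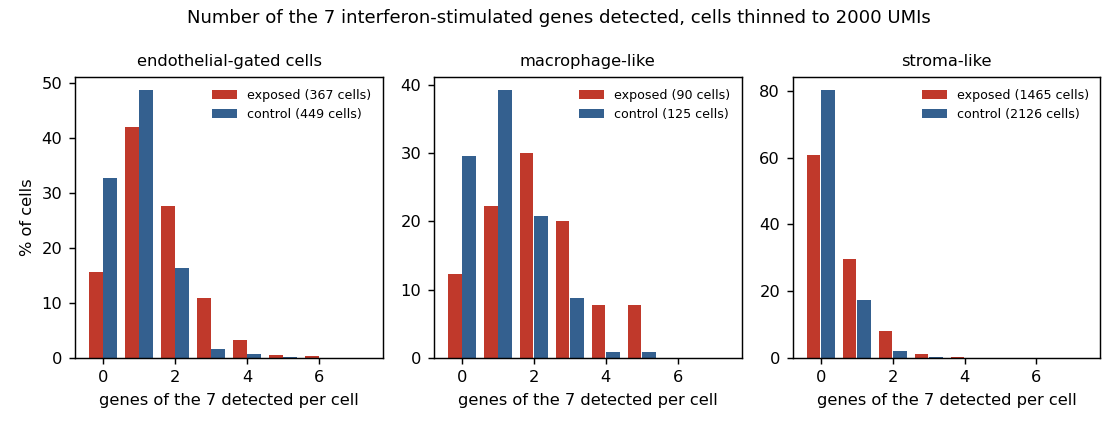
Share of cells (%) by how many of 7 interferon-stimulated genes were detected after each cell was thinned to 2000 UMIs, in endothelial-gated, macrophage-like and stroma-like cells; the number of cells is in each legend. In endothelial-gated cells 15.0% of exposed and 2.45% of control cells held 3 or more, and in macrophage-like cells 35.6% of exposed and 10.4% of control cells.

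Pairs of genes were compared by the share of cells with the second gene among cells with and without the first. In exposed gated cells the share was higher in cells with the first gene for 35 of 36 pairs, and after thinning for 28 of 36. In control gated cells it was higher for 16 of 21 pairs, and after thinning for 13 of 21. Many thinned pairs were rare, with few or no cells holding both genes. Among thinned pairs with at least 5 cells holding both, 21 of 22 exposed and 5 of 7 control pairs were higher. That minimum uses the same cells that set the direction and so favours higher pairs, and nothing is read from these counts. At the deposited depth it left 34 of 34 exposed and 12 of 12 control pairs higher. Pairs with Ifit1 or Irf7 are in the exposed counts only.

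Ifit1 and Ifit3, which lie close together on chromosome 19, gave one of the steepest contrasts. Ifit3 was found in 30.5% of exposed gated cells with Ifit1 and in 5.16% of those without it. Rtp4 was found in 50% of exposed cells with Isg15 and 25.8% of those without, and in 36.1% of control cells with Isg15 and 10.8% of those without. Irf7 stood apart from Ifit1: it was found in 16.9% of exposed cells with Ifit1 and 16.6% of those without. The single exposed pair in the other direction was Ifit1 with Ifi27l2a, of which 1 cell held both. These pairs share library, depth and free RNA.

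**Figure D4:**
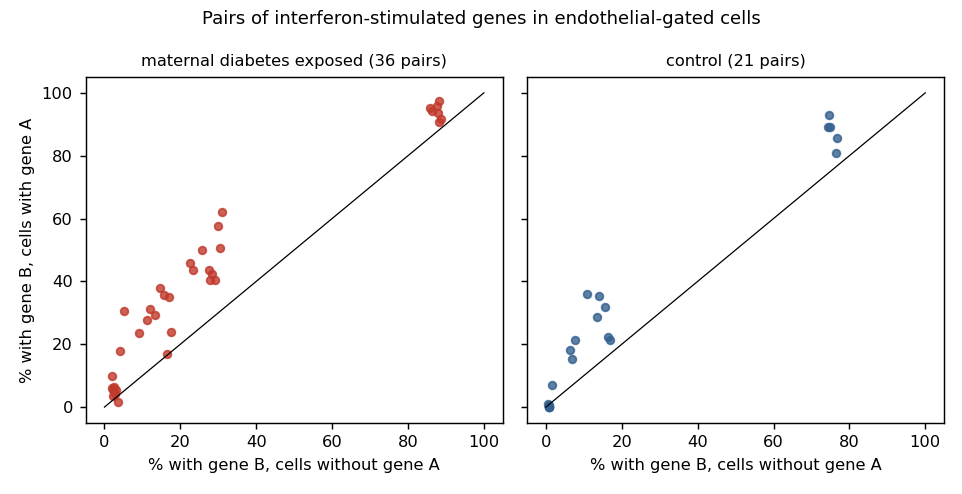
Each point is a pair of interferon-stimulated genes in endothelial-gated cells at the deposited depth: the share (%) of cells with gene B among cells with gene A (vertical) against the share among cells without gene A (horizontal), with the line of equal shares. In the exposed library 35 of 36 pairs lie above the line, and in the control library 16 of 21.

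Across the kidney the summed level was highest in macrophage-, endothelium- and stroma-like cells and was close to 0 in podocytes and proximal tubule. The authors' clusters were numbered separately in each library and were named here by markers, so a class can hold somewhat different cells in each. Endothelium-like clusters held 43.5% of the summed UMIs of the exposed library and 44.2% of those of the control. Stroma-like clusters held 29.8% in the exposed and 26.0% in the control library, and macrophage-like clusters 14.2% in the exposed and 9.92% in the control library. The cluster led by Wnt4, the largest of each library, held 9.06% in the exposed and 16.7% in the control library. Of the Ifit3 UMIs that cluster held 23.3% in the exposed and 62.7% in the control library. Endothelium-like clusters held 32.3% of the Ifit3 UMIs in the exposed and 10.1% in the control library. Over all cells the sum was 223 CPM in the exposed and 117 CPM in the control library, a ratio of 1.91 (1.84 to 1.99). All 7 genes were above a ratio of 1.5 there, against 0.616% of all 8927 genes, and Isg15 had the highest ratio of all (20.5 and 5.81 CPM in exposed and control cells, ratio 3.54).

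**Figure D5:**
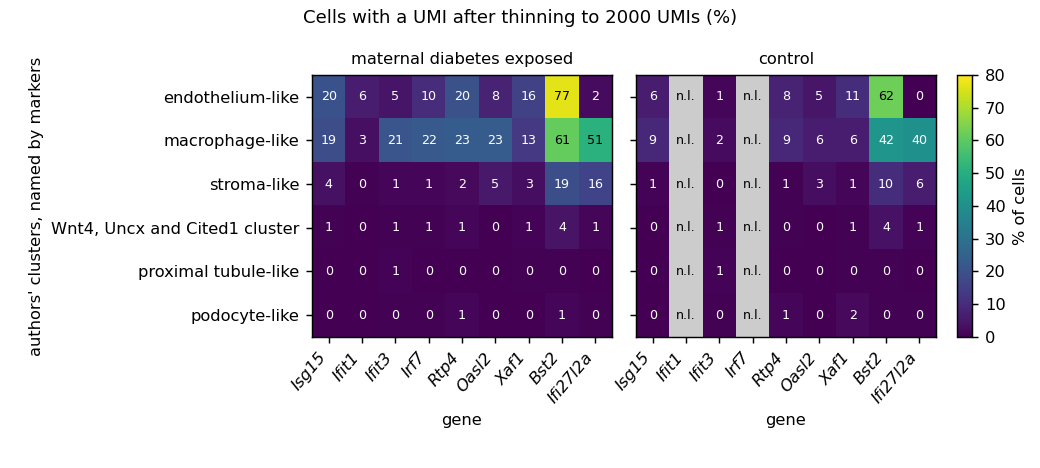
Share of cells (%) with at least 1 UMI of each gene after thinning to 2000 UMIs, by cell class (rows) and gene (columns), in the exposed library (left) and the control (right); grey boxes marked n.l. are genes not listed for the control. Bst2 is found in most endothelium-like cells, Ifi27l2a in macrophage-like and stroma-like cells, and podocyte-like and proximal tubule-like rows are near 0.

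Macrophage-like cells had the highest summed level in both libraries, with Ifi27l2a as the largest single part of it. Without Ifi27l2a the sum was 1373 CPM in exposed macrophage-like and 1258 CPM in exposed endothelium-like cells, and in the control the order was the other way, at 588 CPM in macrophage-like and 792 CPM in endothelium-like cells. Bst2 was lower in macrophage-like than in endothelium-like cells of both libraries, at 698 against 841 CPM in the exposed and 357 against 621 CPM in the control library. The cluster numbered 117 cells in the exposed library and 181 in the control, and in both the neutrophil genes S100a8 and S100a9 stood among its leading genes beside C1qa, C1qb and Lyz2. The sum was 2168 CPM in exposed and 982 CPM in control cells, a ratio of 2.21 (1.97 to 2.48). Rtp4 stood at 187 CPM in exposed and 47.4 CPM in control cells (ratio 3.94, 2.42 to 6.64). Ifit3 stood at 128 CPM in exposed and 34.5 CPM in control cells (ratio 3.73, 2.10 to 6.98), and Oasl2 at 140.5 and 38.8 CPM in exposed and control cells (ratio 3.62, 2.11 to 6.54). Isg15 had the lowest ratio of the 7 here, at 121 CPM in exposed and 64.6 CPM in control cells (1.87, 1.17 to 3.05). All 7 genes were above 1.5, against 8.68% of the 2212 genes with enough UMIs in these cells.

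Ifi27l2a was abundant in macrophage-like cells, unlike in endothelium, at 794 CPM in exposed and 394 CPM in control cells. Irf7 stood at 104 CPM in exposed macrophage-like cells, above its 42.6 CPM in exposed endothelial cells, and Ifit1 at 24.2 CPM, below its 40.6 CPM there. At least 3 of the 7 were found in 68 of 117 exposed cells (58.1%) and 29 of 181 control cells (16.0%), and after thinning in 35.6% of exposed and 10.4% of control cells. Because the cluster mixes cells, it was split by C1qa, C1qb and C1qc, a split chosen after the data were seen. Cells with 2 or more of them had 2148 CPM in the exposed library (87 cells) and 1061 CPM in the control (111 cells), a ratio of 2.03. The remaining cells had 2244 CPM in the exposed library (30 cells) and 823 CPM in the control (70 cells). Most of that sum was Ifi27l2a, with 143 of 189 UMIs in the exposed and 90 of 127 UMIs in the control library. The other genes were sparse there. Isg15 had 4 exposed and 6 control UMIs (ratio 1.22, 0.253 to 5.15), and Rtp4 had 10 and 4 (ratio 4.58, 1.32 to 20.0). Erythroid markers summed to 2.42 CPM in exposed and 659 CPM in control macrophage-like cells, and neutrophil markers to 16142 CPM in exposed and 21683 CPM in control cells. Their part in the result was not tested.

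Stroma-like cells, led by collagen genes with Penk and Mgp, had lower levels, again higher in the exposed library. The sum was 307 CPM in 1614 exposed cells and 148 CPM in 2670 control cells, a ratio of 2.06 (1.92 to 2.22). Isg15 stood at 22.7 CPM in exposed and 5.21 CPM in control cells, a ratio of 4.36 (3.07 to 6.31). Rtp4 stood at 11.2 CPM in exposed and 3.23 CPM in control cells (ratio 3.47, 2.18 to 5.68). Of the 6 genes with at least 50 UMIs, 5 were above 1.5, against 1.07% of 7874 genes, and Oasl2 was the sixth at 1.46.

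Ifi27l2a was found in far more stroma-like than endothelial cells. It had 113 CPM in exposed and 40.8 CPM in control cells, a ratio of 2.75 (2.41 to 3.15), and was found in 22.9% of exposed and 8.13% of control cells (16.0% of exposed and 6.07% of control cells after thinning). Bst2 had 116 CPM in exposed and 71.9 CPM in control cells, a ratio of 1.61 (1.44 to 1.80). At least 3 of the 7 were found in 3.59% of exposed and 0.674% of control cells. The median cell held 1 summed UMI in the exposed and 0 in the control library, so these low shares cannot show whether the genes go together. By pairs, the second gene was more frequent in cells with the first for 31 of 36 exposed and 20 of 21 control pairs. After thinning this held for 27 of 36 exposed and 15 of 21 control pairs. Erythroid markers summed to 4.38 CPM in exposed and 105 CPM in control stroma-like cells, and neutrophil markers to 0.812 CPM in exposed and 46.7 CPM in control cells. Their part in the result was not tested.

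The largest cluster of each library, led by Wnt4, Uncx and Cited1, had equal support for nephron progenitor and differentiating nephron cells in the exposed library and stayed unnamed. In the control, the collecting duct genes Aqp2 and Fxyd4 were also among its leading genes, so the values are only set side by side. The sum was 45.2 CPM in 1963 exposed cells and 41.4 CPM in 3335 control cells. Isg15 stood at 4.42 CPM in exposed and 1.24 CPM in control cells. Bst2 stood at 22.3 CPM in exposed and 24.6 CPM in control cells, and Ifit3 at 3.47 CPM in exposed and 5.34 CPM in control cells. Cells with at least 3 of the 7 made up 0.255% of the exposed and 0.210% of the control cluster.

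Podocyte-like cells had 13 summed UMIs in 254 exposed cells and 22 in 354 control cells, or 16.4 CPM in exposed and 22.2 CPM in control cells. Proximal tubule-like cells had 16 summed UMIs in 322 exposed cells and 36 in 619 control cells, or 8.38 CPM in exposed and 10.3 CPM in control cells. Of these, 1 podocyte-like control cell held 3 or more of the 7 genes, and no proximal tubule-like cell of either library did. No ratio was drawn from so few UMIs. A cluster led by mitochondrially encoded genes held no UMI of the 7 genes in 168 exposed cells and 2 UMIs in 573 control cells. The remaining distal-type clusters had 17.8 and 58.1 CPM in the exposed library and 12.9 and 27.8 CPM in the control.

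The other genes of the pathway were read in the endothelial gate from lists of ligands, receptors, kinases, factors and targets. None of the 8 interferon ligand genes searched, Ifnb1 and Ifng among them, is listed for either library. All 5 listed receptor genes had ratios between 1.04 and 1.46 and none reached 1.5, with Ifnar1 at 74.4 CPM in exposed and 67.8 CPM in control cells (ratio 1.10, 0.876 to 1.37). Ifnar2, the other chain of that receptor, stood at 70.5 CPM in exposed and 48.2 CPM in control cells, the highest ratio of the receptor genes (1.46, 1.14 to 1.87). Of the list of kinases and factors below the receptors, Jak1 (ratio 0.931) and Irf9 (ratio 1.22) could be compared and neither reached 1.5. Of 4 interferon regulatory factors compared, 2 were above 1, with a median ratio of 1.03. Irf8 alone reached 1.5, with a ratio of 1.66 (1.09 to 2.52), at 27.9 CPM in exposed and 16.9 CPM in control cells. It was found in 41 exposed and 38 control gated cells, and 5 exposed cells held 31.6% of its exposed UMIs. The part of macrophage RNA in this ratio was not tested. Ifnar1, Ifnar2, Jak1 and Irf9 are named here after their values were seen.

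Of 4 compared inhibitors of the pathway, Socs1, which binds and blocks Janus kinases, stood out at 23.5 CPM in exposed and 10.2 CPM in control cells (ratio 2.31, 1.40 to 3.87). Among 19 other type I interferon-stimulated genes compared, 16 were above 1 and 4 were above 1.5, with a median ratio of 1.30. Over all 7104 genes 54.9% were above 1 and 2.34% above 1.5. None of the 19 was at or below 1/1.5, against 3.97% of all genes, but Ifitm1, left out of the 19 for its few UMIs, was below it. The 4 were Eif2ak2, the double-stranded RNA kinase PKR, at 48.0 CPM in exposed and 22.3 CPM in control cells (ratio 2.15, 1.53 to 3.03), Daxx (1.66), Tor3a (1.64) and Ifi35 (1.58). The most abundant of the list, named after their values were seen, differed less: Ifitm3 had 2081 CPM in exposed and 1607 CPM in control cells (ratio 1.30, 1.24 to 1.35). Ifitm2 had 1045 CPM in exposed and 1077 CPM in control cells (ratio 0.970). Ifitm1 and Epsti1, listed for both libraries, held too few UMIs to be compared and are also named after their values were seen. Ifitm1 had 12 UMIs in exposed and 36 UMIs in control gated cells (ratio 0.416, 0.197 to 0.818). Epsti1 had 6 UMIs in exposed and 5 UMIs in control gated cells (ratio 1.498, 0.381 to 6.21). From the interferon gamma list 1 gene could be compared, the GTPase gene Irgm1, with 44.5 CPM in exposed and 25.5 CPM in control cells (ratio 1.75, 1.26 to 2.44).

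Genes whose UMIs lay most in cells holding 3 or more of the 7 were ranked over both libraries. Likeness was the smaller of the libraries' ratios of observed UMIs, in those 291 exposed and 124 control cells, to the UMIs expected from each cell's depth and cluster. Over 6735 genes the median likeness was 0.969. Among the 10 highest were Zim1 (2.97), Clca1 (2.20), Ctgf (2.04), Krt8 (1.95), Serpinb6b (1.91), Cldn8 (1.87), Col14a1 (1.81), Hopx (1.66) and Uchl1 (1.65). Zim1 rested on 26 exposed and 10 control UMIs. Of the cells with 3 or more genes, 26 of 291 exposed and 25 of 124 control cells had a doublet score over 1. Over all cells it was 277 of 5494 exposed (5.04%) and 584 of 9071 control cells (6.44%). The expected UMIs take no account of doublets, and their part in the ranking was not tested. Of the pathway lists, Tor3a ranked number 13 (1.54), Lgals3bp number 30 (1.39) and Eif2ak2 number 40 (1.34). Of the 37 genes of those lists that were ranked, 27 lay above 1 and 10 below it, with a median of 1.06 and Ifitm1 the lowest (0.656), and over all ranked genes 38.6% lay above 1.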

How the data were processed

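Single cells of whole kidney were read in 1 exposed and 1 control library. The authors deposited UMI counts per gene and cell, whole numbers with no normalization, and, per the file headers, a table of cells with the percent of mitochondrial UMIs, doublet scores and cluster numbers. Each doublet score was computed by the authors. Per the submitters' processing notes, reads went through Cell Ranger 2.2.0 on build mm10. The sources used here do not state the choice of cells and of listed genes, nor the counting of reads shared between genes. The files hold 28381167 UMIs over 9545 genes for the exposed and 39442253 UMIs over 9590 genes for the control library.

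The 9 genes, gene lists and tables were chosen with earlier results of these data known. All deposited cells were kept and no doublets were removed. A cluster was named when at least 3 markers of a class were detected in 10% of its cells at 2 times the level of other cells. That class also needed more such markers than any other class, and more markers among the cluster's 10 leading genes. Genes compared needed 50 UMIs over both libraries. All 9 genes are named, as are pathway genes with a ratio of at least 1.5 or at most 1/1.5 in the gate and the 10 genes of highest likeness; some of these are not reported here.

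Intervals are exact Poisson (sums), conditional binomial (ratios), Clopper-Pearson (shares) and Newcombe (differences of shares), at 95%. The share that a count of 0 allows is 3 cells of the total. Thinning used random seed 1. UMIs are counted once per tag, so intervals cover counting error only. Code ran on Python 3.11.15 with numpy 2.4.6, scipy 1.17.1, pandas 2.3.3, statsmodels 0.14.6 and matplotlib 3.10.9. Only the interval of the ratios was tried on simulated counts, drawn independently as that interval assumes. That checks the code and cannot show how the interval does where UMIs gather in few cells. Alternatives covered cell filters, depth, total, gate and thresholds.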

Additional observations from a re-analysis of the deposited data

How the results depend on the processing

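Among values of the gated cells and of all cells, 117 were computed under alternatives: 105 stayed within their spread, 12 moved and no ratio or difference reversed. These settings were not run on pathway genes or, apart from thinned shares, on macrophage-like and stroma-like cells. Pairs of genes did change direction on thinning: 28 of 36 exposed pairs and 13 of 21 control pairs were then higher, against 35 and 16 at the deposited depth. Only the exposed counts include pairs with Ifit1 or Irf7. Of thinned pairs with at least 5 cells holding both genes, 21 of 22 exposed and 5 of 7 control pairs were higher, but that minimum itself favours higher pairs. The difference in the share of gated cells with 3 or more genes (24.7 points) was 12.5 points after thinning, 12.8 with 4 or more genes required and 12.1 without Bst2 and Ifi27l2a. In all cells (3.93 points) it was 1.87 after thinning, 3.09 without cells with 2 or more macrophage markers, 7.86 with 2 or more genes, 1.93 with 4 or more and 1.42 without Bst2 and Ifi27l2a. Fewer UMIs per cell or more genes required lower such shares by construction. The summed ratio in all cells (1.91) was 2.26 after thinning and 1.81 without mitochondrially encoded genes in the total; the cause was not tested. In the authors' endothelium-like clusters, an alternative chosen after seeing the data, the summed ratio (1.74 in the gate) was 1.60 and that of Bst2 1.36. Between 4 and 6 genes reached 1.5 in the gate. Isg15 ranged from 3.01 to 4.05, Rtp4 from 2.70 to 3.12, Ifit3 from 2.91 to 4.51, Oasl2 from 1.81 to 2.42, Xaf1 from 1.57 to 1.76 and Bst2 from 1.36 to 1.55. Ifi27l2a ranged from 4.61 to 14.9 and gave no value without cells of high doublet score, where the control held no UMI. No paired analysis was possible because each group has 1 library. Animal, litter and library preparation cannot be told apart from exposure.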
